A study of Mus musculus with 8 samples.

Results

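The tumour necrosis factor (TNF) superfamily is a set of ligands and cell surface receptors through which skin and immune cells instruct each other to survive, die, divide or become inflamed. Its genes were taken from the count table of mouse epidermal cells by their names: every symbol beginning Tnfsf or Tnfrsf, together with Tnf, Lta, Ltb, Ltbr, Fas, Fasl, Cd27, Cd70, Eda, Edar, Eda2r and Edaradd. This gave 45 of the 27179 genes in the table, namely 18 ligands, 25 receptors, the adaptor Edaradd and the antisense transcript Tnfsf13os. At least 10 reads over all libraries were counted for 43 of them, and 20350 genes in all reached that number. The remaining pair was Tnfrsf17, a receptor of plasma cells, with 1 read in all, and Cd70, the ligand of Cd27, with 6 reads, 2 in an aged and 4 in an adult library. No expression in the epidermis can be read from counts this low.

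The libraries came from epidermal cells of C57BL/6J mice, 4 from aged and 4 from adult animals, and were sequenced in bulk after removal of ribosomal RNA. The labels give the age as 73 weeks for aged mice at the start of treatment and as 17 to 25 weeks for adult mice, whereas the methods of the study give a higher age for aged mice. The labels name no altered allele. The labels give all samples the same agent, a control IgG of 210 µg in 100 µl, injected into the abdomen 3 times a week for 12 weeks, although in the methods of the study only ageing mice are said to be injected, and whether adult mice were is unsettled. By the study's methods the epidermis was separated with dispase and most mice were female. The epidermal sheet holds hair follicles, resident T cells and Langerhans cells besides keratinocytes, and in bulk samples fewer cells of a type and less RNA per cell cannot be told apart.

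Ligands of the family are mostly trimers on the cell surface, and some are cut free to act at a distance. Receptors with a death domain, such as Tnfrsf1a and Fas, can recruit Fadd and Casp8 and lead to cell death, whereas most others bind Traf proteins and activate NF-κB. Decoy receptors bind a ligand without passing on the signal. In skin, ectodysplasin (Eda), its receptor Edar and the adaptor Edaradd are needed to form hair follicles, and Tnf from keratinocytes and immune cells drives inflammation.

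The libraries held 75027694 to 90140102 counts. Keratinocyte markers were high in every library: the summed level of 7 basal genes ran from 8097 to 17310 CPM (read counts scaled for sequencing depth), and that of 7 suprabasal genes from 6009 to 14420 CPM. Adult replicates 3 and 4 stood apart from the other adult libraries. Their summed basal markers were 8097 and 8131 CPM, against 14900 and 14660 CPM in adult replicates 1 and 2. Their 7 Langerhans cell markers summed to 31.3 and 67.0 CPM, against 340 and 347 CPM in the other adult libraries. Their 10 hair shaft and inner sheath keratins summed to 264 and 567 CPM, against 9.70 to 210 CPM in the other 6 libraries. In aged replicates 1 to 4 the basal sums were 14980, 17310, 12220 and 11700 CPM. The Langerhans sums there were 365, 212, 151 and 110 CPM. Aged replicates 3 and 4 were thus also below aged replicates 1 and 2 in both sums, though by less. The part of these differences in the values of TNF family genes was not tested. The genes described library by library whose log2 fold change moved by over 1.5 times or changed sign without adult replicates 3 and 4 are therefore also given without them. That fit kept all aged libraries.

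No TNF superfamily gene passed the test for a change between aged and adult epidermal cells. With the quasi-likelihood test of edgeR, 0 of 43 genes were called at an adjusted p under 0.1 and a change of over 25% in the ratio of the group means, the study's thresholds, and DESeq2 called 0 as well. The study applied these thresholds to shrunken fold changes of DESeq2 fitted with a batch term. Neither shrinkage nor a batch term was used here. Over all 20350 genes, edgeR called 3 higher in aged cells (0.0147%) and 15 lower (0.0737%), which is 0.0885% in either direction, and 36 with the replicate number as a block (11 higher, 25 lower). At an unadjusted p under 0.05, 3 of 43 TNF family genes (6.98%) passed, all higher in aged cells: Tnfrsf14, Tnfsf18 and Tnfrsf4. The share of all genes at that threshold was 5.97% in either direction, so the family's share in either direction was near the background. By direction, 6.98% of the family was higher, against 2.28% of all genes. No family gene was lower, against 3.69% of all genes. The difference by direction rests on 3 genes and was not tested. The family's count was 0 with library totals alone, without aged replicate 2 and without adult replicate 3, and 1 without aged replicate 3, without adult replicate 4 or without both adult replicates 3 and 4. It was 4 (9.30%) with DESeq2, without a filter on low counts, without aged replicate 4 and without adult replicate 2. In those fits the share of all genes was 7.09%, 5.51%, 4.74% and 6.93%. It was 6 (14.0%) with the replicate block, 7 (16.3%) with a term for replicates 1 and 2 against 3 and 4, and 6 without adult replicate 1, while the share of all genes was 11.6%, 11.2% and 12.6% in those fits. The adjusted p of the 43 genes ran from 0.831 to 0.994.

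The median log2 fold change of the 43 genes, aged over adult, was 0.12, against 0.01 for all genes tested. In 28 genes (65.1%) the value was above 0, against 51.6% of all genes. Without adult replicates 3 and 4 the family's median was -0.07, and 18 of the 43 genes took the opposite sign. Adult replicates 3 and 4 had the lowest family medians of all libraries, so leaving them out could be expected to lower this value. With all libraries kept, the family's median was 0.14 with the replicate block. It was 0.12 with the term for replicates 1 and 2 against 3 and 4. The direction of the family as a whole therefore depended on whether adult replicates 3 and 4 were kept. Leaving them out kept aged replicates 3 and 4, so age and replicate number were unbalanced in that fit. The parts of age and replicate number in the change of sign were not tested. The libraries of the age groups did not overlap in 1 gene of the family, Tnfsf12, where aged libraries lay above (2.33%, against 1.61% of all genes). Aged libraries lay below all adult ones in 0 of the 43 genes, against 1.78% of all genes. Between libraries of the same replicate number, the aged one was higher in all 4 pairs in Tnfrsf12a, Tnfrsf14, Tnfrsf4, Tnfsf10 and Tnfsf12 (11.6% of the family, against 10.1% of all genes) and lower in all 4 in Ltbr and Tnfrsf13c (4.65%, against 10.6%).

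**Figure D1:**
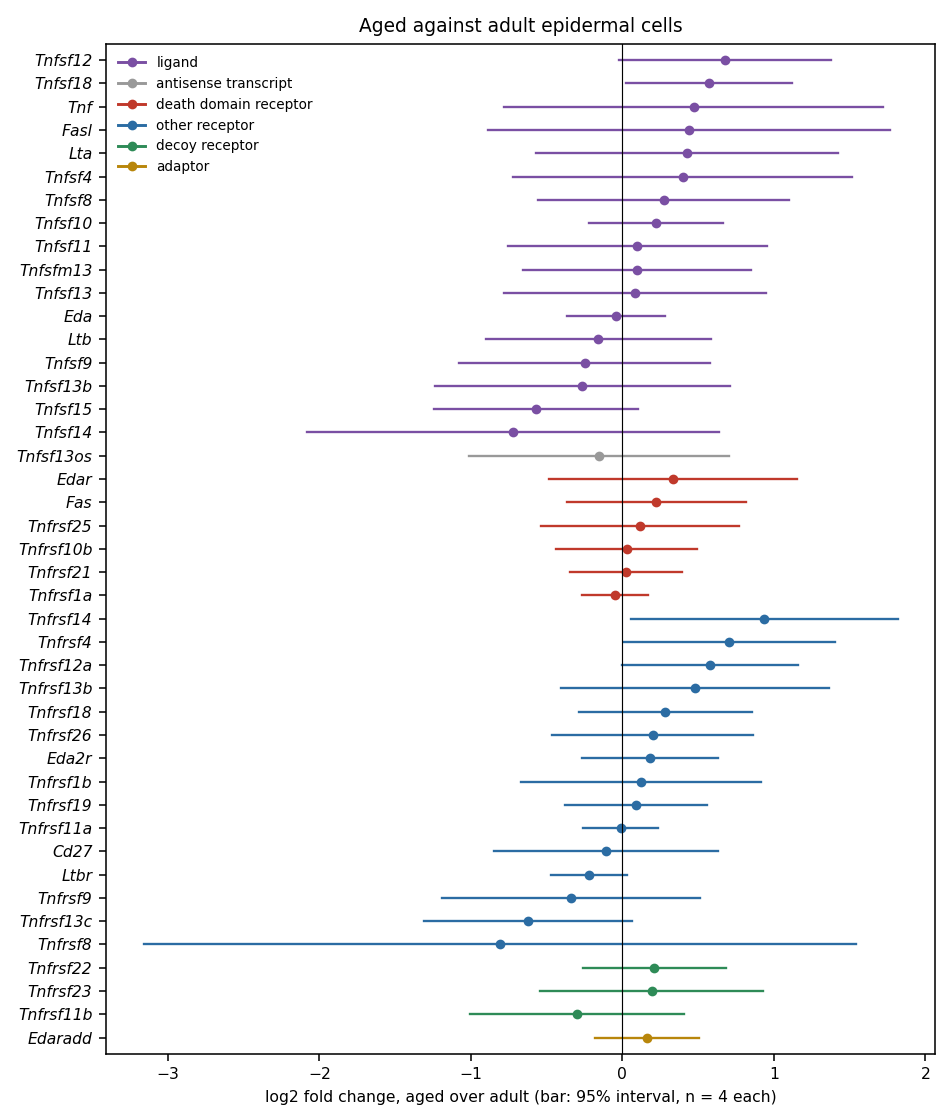
Log2 fold change of 43 TNF superfamily genes, aged over adult, with its 95% interval (horizontal bar), n = 4 libraries per group, coloured by role. The interval lies above 0 for Tnfrsf14, Tnfsf18 and Tnfrsf4 before adjustment, and it is narrowest for Tnfrsf1a.

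As a group, receptors had higher levels than ligands. Different genes were compared in CPM per kilobase of exon, where the median over 24 receptors was 1.39 and the median over 17 ligands was 0.338. Exon lengths came from GENCODE, whereas by the study's methods reads were counted on the inbuilt mm10 annotation of featureCounts. The lengths may therefore differ from the exons counted, and close ranks are approximate. The highest ligand, Tnfsf18, had 1.49 CPM per kilobase, and 12 receptors and the adaptor Edaradd lay above it. The order at the top was Tnfrsf19 (49.2), Tnfrsf1a (37.6), Tnfrsf18 (17.7), Ltbr (14.5) and Tnfrsf12a (12.7), as means over 8 libraries. Tnfrsf19 and Tnfrsf1a overlapped in their libraries (34.3 to 64.2 and 34.6 to 44.1), as did Tnfrsf18, Ltbr and Tnfrsf12a, while every library of Tnfrsf1a lay above every library of Tnfrsf18. At the bottom were Tnfrsf8, a receptor of activated lymphocytes (0.0125), Tnfsf13b, a B cell survival factor (0.0346), and Tnfsf14 (0.0638).

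**Figure D2:**
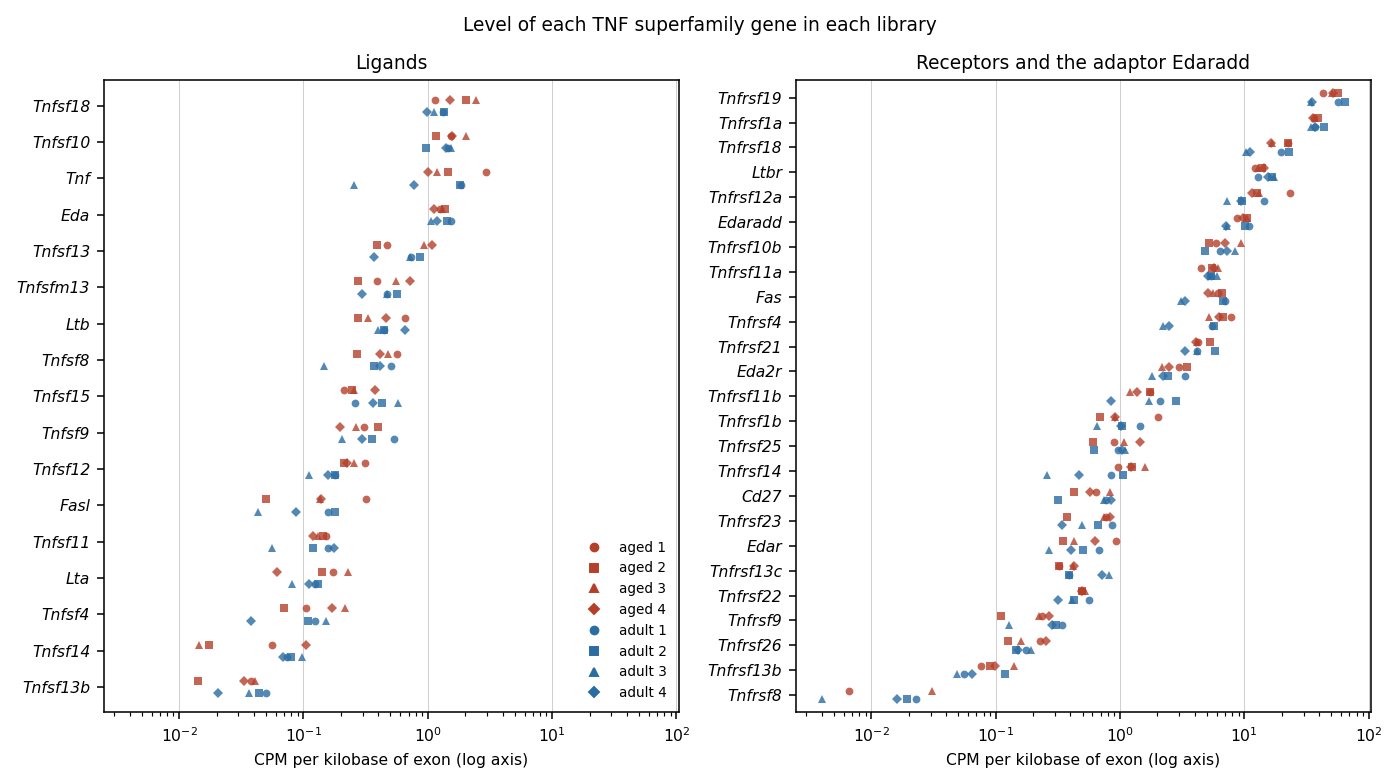
Level of each gene in each library in CPM per kilobase of exon (log axis), ligands on the left and receptors with Edaradd on the right, ordered by mean. Red marks are aged and blue marks adult libraries, with replicates 1 to 4 as circle, square, triangle and diamond; values of 0, which occur in Tnfrsf8 only, are not drawn. Receptors reach 49.2 and ligands 1.49 CPM per kilobase on average.

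Tnf, the founding ligand and a main inflammatory cytokine, was measured at 4.78, 2.40, 1.93 and 1.63 CPM in aged replicates 1 to 4. In adult replicates 1 to 4 it was 3.04, 3.00, 0.417 and 1.28 CPM. Aged replicate 1 was the highest library, adult replicates 3 and 4 were the lowest, and the groups overlapped. The log2 fold change was 0.47 ± 0.56 (SE), with a 95% interval of -0.78 to 1.72 and an adjusted p of 0.920 by edgeR. Without adult replicates 3 and 4 it was -0.17, without aged replicate 1 it was 0.036, and without adult replicate 3 it was 0.14. It was 0.66 with the replicate block and 0.64 with the term for replicates 1 and 2 against 3 and 4. With 1 library left out it reached at most 0.77. An age difference in Tnf of up to 3.30-fold higher or down to 0.581 of the adult level lies inside the interval.

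The lymphotoxin genes Ltb and Lta flank Tnf on chromosome 17 (35194507 to 35205578, GRCm38) and encode ligands by which lymphocytes organise lymphoid tissue. Ltb averaged 0.656 ± 0.26 CPM in the aged group and 0.734 ± 0.18 CPM in the adult group (SD, n = 4). Lta was at 0.209 ± 0.10 and 0.154 ± 0.03 CPM. Adult replicates 3 and 4 differed from the other adult libraries unequally in these neighbours: their mean was 0.281 of that of adult replicates 1 and 2 for Tnf, 0.759 for Lta and 1.19 for Ltb.

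Tnfsf18, the ligand of the receptor Tnfrsf18, was measured at 2.38, 4.17, 5.03 and 3.12 CPM in aged libraries. In adult libraries it was 2.72, 2.78, 2.33 and 2.05 CPM. Aged replicates 2, 3 and 4 lay above every adult library and aged replicate 1 lay among them. Its log2 fold change was 0.57 ± 0.25 (unadjusted p = 0.0432 and adjusted p = 0.831 by edgeR), and 0.41 without adult replicates 3 and 4. It was 0.53 with the replicate block and 0.57 with the term for replicates 1 and 2 against 3 and 4. Tnfsf4, its neighbour on chromosome 1 (together 161395438 to 161505290) and the ligand of Tnfrsf4, was low, with means of 0.258 ± 0.12 CPM (aged) and 0.194 ± 0.09 CPM (adult).

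Tnfsf12, the ligand of Tnfrsf12a, was low, and its aged and adult libraries did not overlap. Aged libraries lay above all adult ones in 1.61% of all genes as well. Its level was 0.478, 0.322, 0.384 and 0.339 CPM in aged libraries and 0.272, 0.269, 0.167 and 0.239 CPM in adult libraries. The lowest aged library was above the highest adult one. By edgeR the log2 fold change was 0.68 ± 0.31, with a 95% interval of -0.03 to 1.38 and an adjusted p of 0.842, and 0.48 without adult replicates 3 and 4. It was 0.68 with the replicate block and 0.69 with the term for replicates 1 and 2 against 3 and 4. The total was 129 reads in aged and 77 in adult libraries, or 28 to 42 per aged and 12 to 24 per adult library. The gap between the groups therefore rests on few reads. On chromosome 11 Tnfsf12 overlaps the read-through transcript Tnfsfm13 on its own strand and the antisense transcript Tnfsf13os, and reads over several genes were counted for each. Tnfsf13 lies 685 bases away and is also spanned by Tnfsfm13. The log2 fold changes of the other members of that locus were 0.08 for Tnfsf13, 0.10 for Tnfsfm13 and -0.15 for Tnfsf13os, and none was separated by age.

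Tnfsf15, the ligand of the death domain receptor Tnfrsf25, was at 0.705, 0.816, 0.860 and 1.26 CPM in aged libraries. In adult libraries it was 0.862, 1.43, 1.92 and 1.21 CPM. Aged libraries were mostly lower, but aged replicate 4 reached the adult values. This gave a log2 fold change of -0.57 ± 0.30 with an adjusted p of 0.855 by edgeR, and -0.34 without adult replicates 3 and 4. The value was -0.55 with the replicate block and -0.57 with the term for replicates 1 and 2 against 3 and 4.

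Tnfsf14, a ligand of Tnfrsf14 and Ltbr, was near the lower end of detection, at 0.102, 0.0322, 0.0265 and 0.194 CPM in aged libraries and 0.136, 0.146, 0.180 and 0.126 CPM in adult libraries. Aged replicates 1, 2 and 3 lay below every adult library and aged replicate 4 was the highest of all. A log2 fold change of -0.72 ± 0.61 rested on 30 reads in aged and 47 in adult libraries (adjusted p = 0.888 by edgeR).

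Eda, the ectodysplasin ligand, varied little. It was measured at 8.47, 9.42, 8.91 and 7.72 CPM in aged libraries and at 10.4, 9.82, 7.25 and 8.03 CPM in adult libraries. The groups overlapped throughout, and the log2 fold change was -0.04 ± 0.14 (adjusted p = 0.979 by edgeR), with an interval of 0.776 to 1.22 as a fold, and -0.24 without adult replicates 3 and 4. Both the replicate block and the term for replicates 1 and 2 against 3 and 4 gave -0.03.

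Tnfsf11, the ligand of Tnfrsf11a that drives osteoclast formation and also acts in skin, was at 0.341, 0.322, 0.291 and 0.266 CPM in aged libraries. In adult libraries it was 0.352, 0.269, 0.125 and 0.393 CPM. Adult replicate 3 was the lowest library and adult replicate 4 the highest, so the aged values lay inside the adult range. Aged over adult, the log2 fold change was 0.10 ± 0.38 (adjusted p = 0.983 by edgeR), and -0.03 without adult replicates 3 and 4. It was 0.18 with the replicate block and 0.10 with the term for replicates 1 and 2 against 3 and 4.

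The other ligands showed no separation by age. Tnfsf10, which binds the death receptor Tnfrsf10b, was among the highest of the ligands, at 6.08 to 10.6 CPM in aged and 5.12 to 8.05 CPM in adult libraries (log2 fold change 0.22 ± 0.20). Fasl, the ligand of Fas, had 105 reads in aged and 76 in adult libraries. Among 17 ligands, 9 had a mean under 1 CPM, and their log2 fold changes ran from -0.72 to 0.68, with 11 above and 6 below 0.

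Among the 6 receptors with a death domain, Tnfrsf1a, the main receptor of Tnf, was the highest. Its level was 93.8, 101.5, 96.4 and 91.9 CPM in aged libraries and at 96.5, 114, 89.7 and 96.0 CPM in adult libraries. The groups overlapped and the spread was small. For Tnfrsf1a the log2 fold change was -0.05 ± 0.10 (adjusted p = 0.961 by edgeR), and the 95% interval of the fold ran from 0.831 to 1.13, and a rise of 25% in Tnfrsf1a lay outside it. Without adult replicates 3 and 4 the log2 value was -0.14. Tnfrsf1b, the other Tnf receptor, which has no death domain, averaged 4.33 ± 2.31 CPM (aged) and 3.98 ± 1.26 CPM (adult).

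Fas, the receptor of Fasl and an inducer of apoptosis, was measured at 12.6, 13.7, 11.7 and 10.5 CPM in aged libraries. In adult libraries it was 14.3, 13.8, 6.39 and 6.88 CPM. Aged libraries lay between the higher and the lower adult libraries, and adult replicates 3 and 4 were the lowest of all. Its log2 fold change was 0.22 ± 0.27 with an adjusted p of 0.920 by edgeR, and -0.22 without adult replicates 3 and 4. It was 0.31 with the replicate block and 0.32 with the term for replicates 1 and 2 against 3 and 4.

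Edar, the ectodysplasin receptor of developing hair follicles, was at 3.40, 1.27, 1.56 and 2.30 CPM in aged libraries and at 2.46, 1.85, 0.972 and 1.46 CPM in adult libraries. Replicate 1 was the highest library of both groups. For Edar the log2 fold change was 0.34 ± 0.37 (adjusted p = 0.917 by edgeR), and -0.02 without adult replicates 3 and 4. The Edar value was 0.32 with the replicate block and 0.38 with the term for replicates 1 and 2 against 3 and 4. Eda2r, which binds the other splice form of ectodysplasin and has no death domain, was higher than Edar. Its libraries gave 17.7, 20.4, 12.8 and 14.6 CPM in aged libraries and 19.6, 14.3, 10.7 and 13.1 CPM in adult libraries. The age groups of Eda2r overlapped, with a log2 fold change of 0.18 ± 0.20 (adjusted p = 0.917 by edgeR) and -0.06 without adult replicates 3 and 4. The Eda2r value was 0.19 with the replicate block and 0.18 with the term for replicates 1 and 2 against 3 and 4. Per kilobase of exon, Eda2r was at 2.62 CPM, Edar at 0.525 CPM and the adaptor Edaradd at 9.36 CPM. Edaradd itself had a log2 fold change of 0.16 ± 0.15 (-0.10 without adult replicates 3 and 4), and its lowest libraries were adult replicates 3 and 4 (48.0 and 47.5 CPM). The Edaradd value was 0.18 with the replicate block and 0.19 with the term for replicates 1 and 2 against 3 and 4.

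The other death domain receptors had log2 fold changes near 0 in the main fit. Tnfrsf10b, the receptor of Tnfsf10, averaged 37.3 ± 9.86 CPM (aged) and 36.6 ± 8.24 CPM (adult), with a log2 fold change of 0.03 ± 0.21. Tnfrsf21 and Tnfrsf25 had log2 fold changes of 0.02 ± 0.17 and 0.12 ± 0.29, and the 95% interval of Tnfrsf25 ran from -0.54 to 0.77. Without adult replicates 3 and 4 the values were 0.29 for Tnfrsf10b, -0.17 for Tnfrsf21 and 0.34 for Tnfrsf25. Tnfrsf10b and Tnfrsf25 were higher in adult replicates 3 and 4 than in adult replicates 1 and 2, opposite to most of the family.

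Tnfrsf14, the receptor of Tnfsf14 on lymphocytes and epithelial cells, had the largest positive log2 fold change of the family. It was measured at 1.38, 1.80, 2.30 and 1.78 CPM in aged libraries and at 1.21, 1.51, 0.375 and 0.674 CPM in adult libraries. Aged replicates 2, 3 and 4 lay above every adult library, aged replicate 1 lay below adult replicate 2, and adult replicates 3 and 4 were the lowest. This amounted to a log2 fold change of 0.93 ± 0.39, with a 95% interval of 0.05 to 1.82 (unadjusted p = 0.0398 and adjusted p = 0.831 by edgeR). Without adult replicates 3 and 4 it was 0.40. It was 1.06 both with the replicate block and with the term for replicates 1 and 2 against 3 and 4.

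Tnfrsf4, a costimulatory receptor of activated T cells, was measured at 10.7, 9.24, 7.17 and 8.55 CPM in aged libraries. In adult libraries it was 7.49, 7.86, 3.06 and 3.40 CPM. Aged libraries were higher except that aged replicate 3 lay below adult replicates 1 and 2. Its log2 fold change was 0.71 ± 0.31 (unadjusted p = 0.0475 and adjusted p = 0.833 by edgeR), 0.82 with a term for replicates 1 and 2 against 3 and 4 (adjusted p = 0.198), the lowest adjusted p of the family in any alternative, and 0.21 without adult replicates 3 and 4. The T cell markers, 8 genes, summed to 64.9 to 110 CPM in aged libraries. In adult replicates 1 to 4 they summed to 92.4, 76.05, 40.7 and 72.8 CPM. Adult replicate 3 was the lowest, while adult replicate 4, also low in Tnfrsf4, lay inside the aged range. None of the 8 was at 0. Their part in the values of Tnfrsf4 was not tested.

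Tnfrsf18, the receptor of Tnfsf18 on regulatory and other T cells, lies next to Tnfrsf4 on chromosome 4 and followed a like order over the libraries. It was measured at 34.1, 34.2, 25.6 and 24.9 CPM in aged libraries and at 30.1, 34.7, 15.7 and 17.0 CPM in adult libraries. Adult replicates 3 and 4 were the lowest libraries of both genes, at 0.504 of the mean of adult replicates 1 and 2 for Tnfrsf18 and 0.420 for Tnfrsf4. Between the groups, the log2 fold change of Tnfrsf18 was 0.28 ± 0.26 (adjusted p = 0.899 by edgeR) and took the opposite sign, -0.13, without those libraries. It was 0.35 both with the replicate block and with the term for replicates 1 and 2 against 3 and 4. An antisense gene, Gm16008, overlaps Tnfrsf18 and had 326 reads in all, against 18248 for Tnfrsf18.

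The upstream sequences of these neighbours and of the neighbours Tnf and Ltb are shown because the first pair had a like order over the libraries and the second did not. Each is the 250 bases before a RefSeq transcript start on GRCm38.p6, read 5′ to 3′ on the gene's strand. For Tnfrsf4 that start lies inside the annotated gene, which begins at 156013595, so the end of its window lies within the gene. Capitals mark the TATA box letters TATAAA and the kappaB consensus, each searched on both strands. No match of one overlapped the other.
Tnfrsf4 (chr4:156013445-156013694, plus strand): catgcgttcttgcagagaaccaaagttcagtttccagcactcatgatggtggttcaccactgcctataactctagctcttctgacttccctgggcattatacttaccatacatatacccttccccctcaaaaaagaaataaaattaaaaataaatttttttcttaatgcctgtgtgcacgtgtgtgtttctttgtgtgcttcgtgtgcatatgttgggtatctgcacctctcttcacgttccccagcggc
Tnfrsf18 (chr4:156026072-156026321, plus strand): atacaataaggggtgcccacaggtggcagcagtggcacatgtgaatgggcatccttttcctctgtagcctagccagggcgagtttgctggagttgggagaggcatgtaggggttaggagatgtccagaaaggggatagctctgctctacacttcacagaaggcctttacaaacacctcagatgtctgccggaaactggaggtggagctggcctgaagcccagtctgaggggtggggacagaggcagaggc
Tnf (chr17:35202008-35202257, minus strand): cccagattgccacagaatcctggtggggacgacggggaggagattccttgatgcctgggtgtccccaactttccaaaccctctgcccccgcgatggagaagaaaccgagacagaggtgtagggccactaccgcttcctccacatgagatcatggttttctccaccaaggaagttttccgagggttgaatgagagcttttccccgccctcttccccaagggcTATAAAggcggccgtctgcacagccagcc
Ltb (chr17:35194257-35194506, plus strand): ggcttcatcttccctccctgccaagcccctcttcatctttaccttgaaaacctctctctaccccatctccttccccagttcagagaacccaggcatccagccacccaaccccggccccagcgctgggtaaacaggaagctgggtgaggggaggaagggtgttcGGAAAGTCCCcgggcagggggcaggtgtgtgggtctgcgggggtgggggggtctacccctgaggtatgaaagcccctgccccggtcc
The Tnf window held TATAAA starting 29 bases before the start. The Ltb window held a kappaB match on the opposite strand, whose printed letters start 87 bases before the start. The windows of Tnfrsf4 and Tnfrsf18 held neither. Of 32851 promoters in the table, 3.90% held the kappaB consensus and 12.4% held TATAAA. Among 40 promoters of the 36 TNF family genes found there, 3 held kappaB (Ltb, Tnfrsf8, Tnfrsf9) and 7 held TATAAA (Eda2r, Lta, Tnf, Tnfrsf17, Tnfrsf23, Tnfsf11, Tnfsf18). These matches describe letters only.

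Tnfrsf12a, the receptor of Tnfsf12 and a gene induced in injured epithelium, was measured at 45.3, 24.6, 25.4 and 22.5 CPM in aged libraries. In adult libraries it was 27.9, 18.6, 14.1 and 18.3 CPM. Aged replicate 1 stood far above the other libraries, and adult replicate 1 lay above the remaining aged ones. For Tnfrsf12a the log2 fold change was 0.58 ± 0.26 (adjusted p = 0.837 by edgeR), with a 95% interval of -0.0026 to 1.16, 0.34 without adult replicates 3 and 4, and 0.29 without aged replicate 1. Between libraries of the same number the aged one was higher in all 4 pairs, and blocking on the replicate number gave 0.56 (adjusted p = 0.219 by edgeR).

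Tnfrsf19, expressed in hair follicle and progenitor cells, was the highest gene of the family per kilobase. Its level was 204.5, 269, 242 and 244 CPM in aged libraries and at 269.7, 304, 163 and 167 CPM in adult libraries. Aged values lay inside the adult range. By age, its log2 fold change was 0.09 ± 0.21 (adjusted p = 0.968 by edgeR) and -0.27 without adult replicates 3 and 4. Both the replicate block and the term for replicates 1 and 2 against 3 and 4 gave 0.14.

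Ltbr, the lymphotoxin receptor of epithelial and stromal cells, had one of the smallest standard errors. It was measured at 28.8, 32.6, 30.5 and 33.8 CPM in aged libraries and at 30.3, 39.2, 40.8 and 36.3 CPM in adult libraries. Adult replicates 2, 3 and 4 lay above every aged library. The log2 fold change was -0.22 ± 0.11, with an adjusted p of 0.850 by edgeR, and -0.15 without adult replicates 3 and 4.

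Tnfrsf11a, the receptor of Tnfsf11, was measured at 27.0, 33.0, 36.8 and 34.1 CPM in aged libraries and at 32.5, 32.4, 36.3 and 30.8 CPM in adult libraries. The adult values lay inside the aged range. Between groups it differed by a log2 fold change of -0.01 ± 0.11 (adjusted p = 0.994 by edgeR), and the 95% interval of the fold ran from 0.835 to 1.18. Without adult replicates 3 and 4 the log2 value was 0.0067. Tnfrsf11a and Tnfrsf1a were the genes of the family whose 95% intervals held no value past the 25% threshold in either direction, taken as the ratio of the higher to the lower group. Tnfrsf11b, the soluble decoy of Tnfsf11, averaged 4.27 ± 0.76 CPM (aged) and 5.26 ± 2.30 CPM (adult).

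Receptors of B cell survival factors were low. Tnfrsf13c, the receptor of Tnfsf13b, was measured at 0.660, 0.666, 0.860 and 0.871 CPM in aged libraries and at 0.794, 0.796, 1.67 and 1.46 CPM in adult libraries. It was the 1 gene of the family in which adult replicates 3 and 4 were both the highest libraries. The log2 fold change was -0.62 ± 0.31 (adjusted p = 0.850 by edgeR), and -0.06 without those libraries. Both the replicate block and the term for replicates 1 and 2 against 3 and 4 gave -0.56. Tnfrsf13b was at 0.216, 0.258, 0.397 and 0.278 CPM in aged libraries and at 0.159, 0.336, 0.139 and 0.182 CPM in adult libraries, with overlapping groups and a log2 fold change of 0.48 ± 0.40 (0.20 without adult replicates 3 and 4). B cell markers summed to at most 0.533 CPM in any library, and Ms4a1 was at 0 in all of them.

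The decoy receptors Tnfrsf22 and Tnfrsf23, which in mouse bind the ligand Tnfsf10, had log2 fold changes of 0.21 ± 0.21 and 0.19 ± 0.33. Tnfrsf22 was even among aged libraries, at 2.04 to 2.20 CPM, and ranged from 1.33 to 2.38 CPM in adult ones. The remaining receptors were Cd27 and Tnfrsf9, costimulatory receptors of lymphocytes, Tnfrsf8 and Tnfrsf26. Their log2 fold changes were -0.11 ± 0.33, -0.34 ± 0.38, -0.81 ± 1.05 and 0.20 ± 0.30. Tnfrsf8 rested on 28 reads in all. Tnfrsf9 and Cd27 overlap genes on the opposite strand, Camta1 and Vamp1, whose reads may be counted with them if strand was not used.

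**Figure D3:**
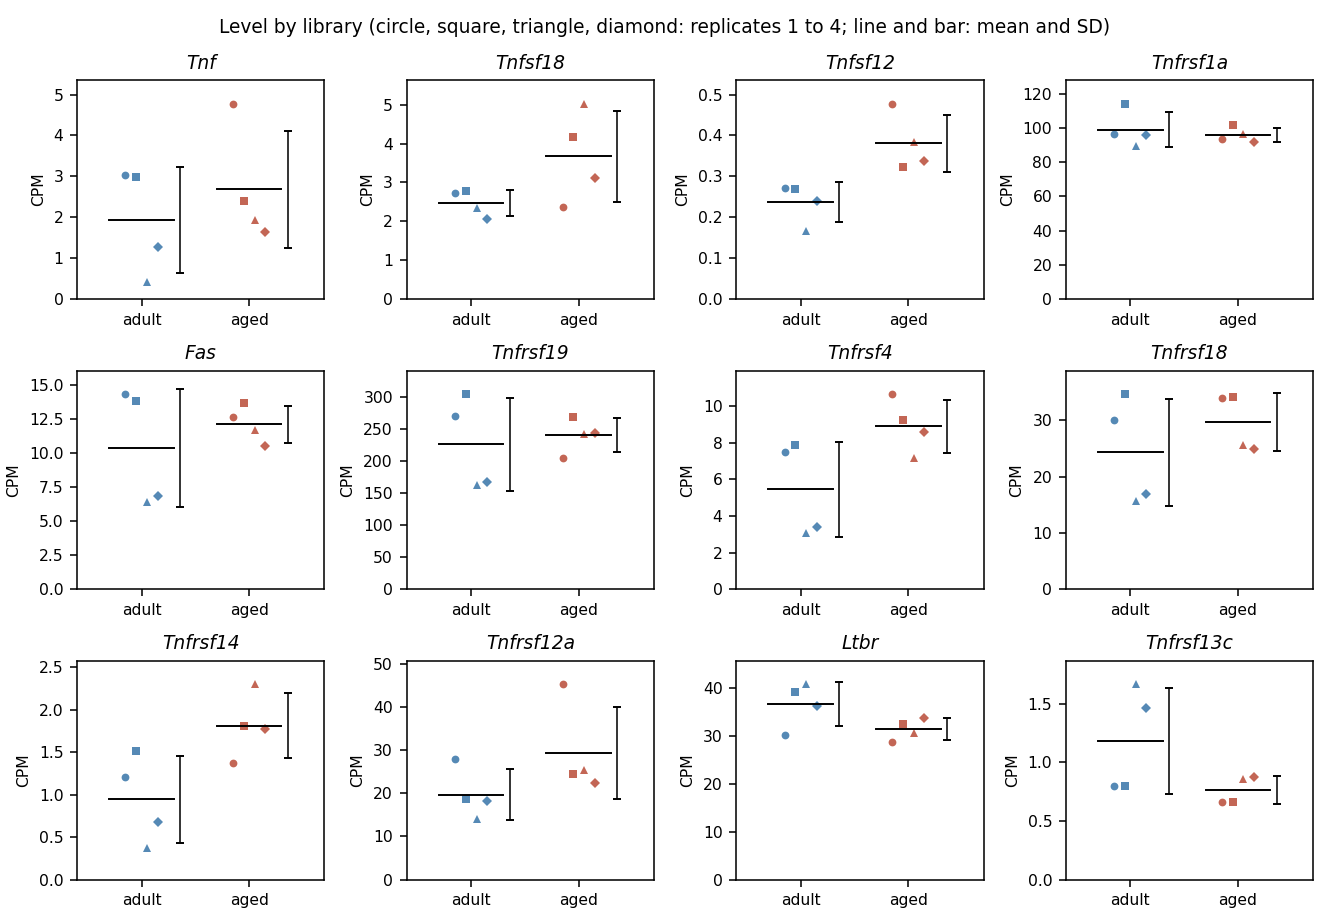
Level of 12 TNF superfamily genes in each library in CPM, adult in blue and aged in red; circle, square, triangle and diamond are replicates 1 to 4, the horizontal line is the mean and the vertical bar is the SD over 4 libraries. Adult replicates 3 and 4 are the lowest libraries for Tnf, Fas, Tnfrsf4, Tnfrsf18, Tnfrsf14, Tnfrsf12a, Tnfrsf19, Tnfsf12 and Tnfsf18, and the highest for Tnfrsf13c.

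Adult libraries differed among themselves in much of the family. Adult replicates 3 and 4 both lay below adult replicates 1 and 2 in 27 of 43 genes (62.8%), against 28.4% of all genes tested, and both above in 3 genes (6.98%), against 30.8%. They were the lowest pair of all 8 libraries in 11 genes: Edaradd, Fas, Tnf, Tnfrsf12a, Tnfrsf14, Tnfrsf18, Tnfrsf19, Tnfrsf22, Tnfrsf4, Tnfsf12 and Tnfsf18. The median deviation of the family from each gene's mean over 8 libraries was taken on the log2 scale. It was -0.28 and -0.20 in adult replicates 3 and 4, and 0.21 and 0.17 in adult replicates 1 and 2. In aged replicates 1 to 4 it was 0.05, -0.05, 0.11 and 0.07. In all genes tested it was 0.01 in both adult replicates 3 and 4. Mitochondrial transcripts took 25.3% and 31.1% of the counts in adult replicates 3 and 4, and 17.5% and 18.2% in the other adult libraries. In aged replicates 1 to 4 they took 21.0%, 17.3%, 24.3% and 25.5%, so this share was also higher in aged replicates 3 and 4. Neither this share nor the lower Langerhans cell and basal keratinocyte markers was tested as the source of the split. These counts describe 8 libraries and were not tested.

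**Figure D4:**
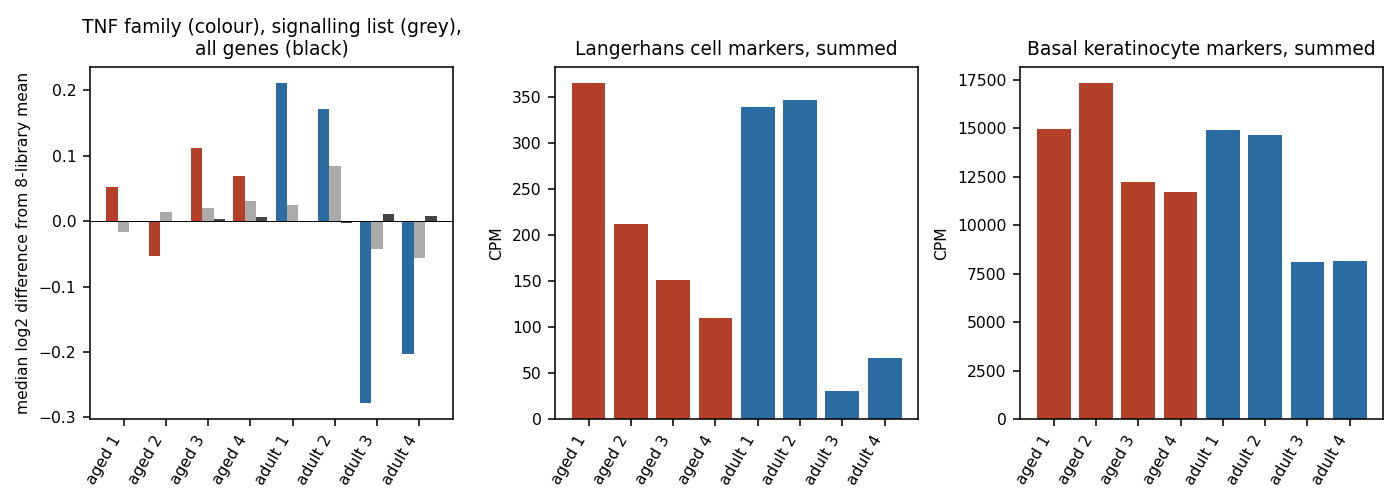
Left, median log2 difference from the mean of all 8 libraries for TNF superfamily genes (red aged, blue adult), the signalling list (grey) and all genes tested (black); middle and right, summed CPM of Langerhans cell and basal keratinocyte markers in each library. Adult replicates 3 and 4 have the lowest TNF family medians (-0.28 and -0.20) and the lowest marker sums.

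Of 44 further genes tied to TNF receptor signalling, edgeR and DESeq2 called 0 in either direction. The share called over all genes by edgeR was 0.0885%. At an unadjusted p under 0.05 by edgeR, 0 of the 44 passed, against 5.97% of all genes. That last count was 2 with DESeq2, 5 (11.4%) with the replicate block and with the term for replicates 1 and 2 against 3 and 4, where 11.6% and 11.2% of all genes passed, and 0 to 2 with each library left out. The list held 40 signalling genes (Traf adaptors, death and NF-κB components, ubiquitin regulators and the sheddases Adam10 and Adam17) and 4 family members whose names fall outside the rule (Cd40, Cd40lg, Ngfr and Relt). Their median log2 fold change was 0.02, with 26 of 44 (59.1%) above 0, against 51.6% of all genes. The 5 with the smallest unadjusted p were Casp8, Relt, Tab2, Tnip1 and Rbck1.

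Casp8, the initiator caspase recruited by death domain receptors, was the 1 gene of that list whose age groups did not overlap (2.27%, near the 1.61% of all genes with aged libraries above). Libraries gave 33.6, 36.0, 35.3 and 39.6 CPM in aged libraries and at 33.1, 31.6, 31.5 and 31.2 CPM in adult libraries. The lowest aged library lay just above the highest adult one. The log2 fold change was 0.18 ± 0.08 (adjusted p = 0.843 by edgeR). Relt, a low-level receptor of the family, had a log2 fold change of 0.79 ± 0.37. Tab2, an adaptor of the kinase Map3k7, had -0.22 ± 0.10, and the NF-κB regulators Tnip1 and Rbck1 had -0.15 ± 0.09 each.

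The signalling list varied less between libraries than the family did. The SD of a library's mean deviation within its age group was 0.09 on the log2 scale for the 44 genes and 0.19 for the 43 TNF superfamily genes. The median deviation of the 44 genes in adult replicates 3 and 4 was -0.04 and -0.06. This median hides shifts in both directions. The mean of adult replicates 3 and 4 over that of adult replicates 1 and 2 was 0.305 for Tnfaip3 and 0.456 for Nfkbia. It was 1.35 for Adam17 and 1.39 for Traf6. Of the 43 TNF superfamily genes, 15 had a mean under 1 CPM. Neither the difference in spread nor the part of low counts in it was tested.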

How the data were processed

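RNA was sequenced from epidermal cells of 4 aged and 4 adult mice, and the title of each sample gave its group and replicate number. The authors deposited raw read counts per gene for 27179 Entrez identifiers, with no normalization. By the labels and the study's methods, reads were aligned with STAR 2.5.2b to mm10, with mm9 also listed, and counted with featureCounts, which counted a read overlapping several genes for each. Use of strand in counting is not stated in the sources used. The labels call the RNA polyA, whereas the protocol names a total RNA kit with ribosomal depletion. Symbols came from RefSeq GRCm38.p6 for 25275 identifiers and from GENCODE for 18, and exon lengths from GENCODE.

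Counts of the 20350 genes with at least 10 reads entered a quasi-likelihood fit (R 4.3.3, edgeR 4.0.16) scaled by TMM, without covariate, since no source used names the batch of a sample. P-values were Benjamini-Hochberg adjusted over all of them, and genes were called at an adjusted p under 0.1 and a fold over that of the study, a 25% change. CPM values are scaled by TMM. The biological coefficient of variation was 0.266, and the depth of 75027694 to 90140102 counts leaves the spread between samples as the main error for all but the lowest genes. The labels do not say that samples are separate animals, whereas the study's methods name 4 mice per condition. The script was tested on simulated data. Replicates of a group differed beyond counting error (chi-square over its degrees of freedom 74.4 or more), so none was a second copy of another.

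Alternatives were RLE size factors, library totals alone, edgeR's filterByExpr, no filter, DESeq2 1.42.0, a replicate block, a term for replicates 1 and 2 against 3 and 4, adult replicates 3 and 4 left out, and each library left out. Deviations from the group means correlated at 0.272, 0.443, 0.254 and 0.383 between same-numbered aged and adult libraries over 14131 genes. Since every value was over 0.1, the numbers were treated as pairs in the replicate block and in the counts by pair, from the data and not the labels. The main fit was unpaired. Unlike numbers, such as aged replicate 4 with adult replicate 3 (0.434), also reached over 0.1. The correlations therefore do not single out libraries of the same number as pairs. They did separate replicates 1 and 2 from replicates 3 and 4 in both age groups. Between aged and adult libraries within either set they ran from 0.104 to 0.443. Across the sets they ran from -0.49 to 0.033. The source of this split was not tested. Genes given library by library were those called, the 10 with the smallest unadjusted p, the 5 highest per kilobase, those without overlap of the age groups, and Tnf, Tnfrsf1a, Fas, Eda, Edar, Eda2r, Tnfsf11 and Tnfrsf11a. Lta, Ltb and the other genes described by mean or range were added for their position or role. The members, lists and alternatives were chosen with earlier results of these data known. The hair keratin Krt85 of the marker lists was not analysed here.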

Additional observations from a re-analysis of the deposited data

Results flagged for a closer look

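Within groups of 4 libraries, 3 of 86 groups of TNF superfamily genes held a library whose gap to its nearest neighbour was above Dixon's 95% critical value, relative to the range, and chance gives about 1 in 20. Tnfrsf12a was at 45.3 CPM in aged replicate 1, against 22.5 to 25.4 CPM in the other aged libraries. Tnfrsf1b was at 7.75 CPM in the same library, against 2.64 to 3.47 CPM in the others. Tnfrsf21 was at 21.8 CPM in aged replicate 2, against 16.9 to 17.4 CPM in the others.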

How the results depend on the processing

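None of the 43 TNF superfamily genes and none of the 44 further genes was called in any of the 16 alternatives. The smallest adjusted p of a family gene was 0.198, by edgeR. All genes tested gave 3 called higher and 15 called lower by edgeR. Library totals alone gave 1 higher, filterByExpr 5 higher, DESeq2 74 higher and 128 lower, the replicate block 11 higher and 25 lower, the term for replicates 1 and 2 against 3 and 4 19 higher and 33 lower, and leaving out adult replicates 3 and 4 7 lower. Of the calls, 83.3% were lower, but 92.3% with library totals alone, 63.4% with DESeq2, 69.4% with the replicate block, 63.5% with the pair term and 70.0% without adult replicates 3 and 4. Leaving out 1 library gave 1 to 3 higher and 5 to 12 lower. The replicate block changed no call of a named gene. The sign of a log2 fold change differed in 50 of 687 single-gene alternatives, none called. With library totals Tnfrsf11a was 0.024, and with the pair term Tnfsf13 was -0.0077. Without adult replicates 3 and 4 the family's median was -0.074, and the reversed values were Tnfrsf11a 0.0067, Fasl -0.074, Edar -0.016, Tnfsfm13 -0.11, Tnfsf13 -0.17, Edaradd -0.10, Tnfrsf19 -0.27, Tnfsf11 -0.028, Tnf -0.17, Tnfrsf21 -0.17, Fas -0.22, Tnfsf8 -0.016, Tnfrsf1b -0.13, Tnfrsf18 -0.13, Cd27 0.19, Tnfrsf22 -0.00241, Tnfrsf23 -0.18 and Eda2r -0.057. The cause was not tested. With 1 library left out, 16 genes reversed, in these ranges: Cd27 -0.34 to 0.035, Eda -0.13 to 0.045, Fasl -0.14 to 0.74, Ltb -0.44 to 0.026, Tnfrsf10b -0.15 to 0.16, Tnfrsf11a -0.075 to 0.071, Tnfrsf19 -0.045 to 0.26, Tnfrsf1a -0.093 to 0.028, Tnfrsf1b -0.32 to 0.33, Tnfrsf21 -0.085 to 0.19, Tnfrsf25 -0.10 to 0.30, Tnfsf11 -0.14 to 0.29, Tnfsf13 -0.17 to 0.29, Tnfsf13os -0.45 to 0.042, Tnfsf9 -0.44 to 0.038 and Tnfsfm13 -0.14 to 0.29. The 95% interval of Fasl, with 181 reads in all, ran from a fold of 0.539 to 3.41, and its level from 0.0967 to 0.614 CPM among aged libraries; the parts of counting and of spread between libraries in that width were not tested.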
